A study of Phaseolus vulgaris with 18 samples.

Results

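Genes of the 26S proteasome were followed in developing pods of 2 lines of common bean (Phaseolus vulgaris). The members are the genes of the deposited table whose description contains "proteasome" or "regulatory particle", with a count of at least 10 in at least 3 of the 18 libraries. The rule found 45 of the 25124 genes in the table, and all 45 passed the filter on low counts that left 22805 genes for testing. A18-1, called the golden line here, bears pods that go from green to gold with age, a trait its submitters trace to the locus pv-ye. Renaya, called the green line, has pods that stay green up to ripening. Both lines grew untreated in a climate chamber, and each was sampled at 10, 14 and 18 days after flowering (DAF), giving 6 groups of 3 libraries that the design text calls independent biological repeats. The design text names pod walls as the material, whereas a label field of the same libraries reads leaf, and this was not resolved. Fruit identity markers matched 4 tested genes. Phvul.009G203400, described as AGAMOUS-like 8 (FRUITFULL of Arabidopsis, a factor of fruit wall identity), averaged 88.6 FPKM over the 18 libraries of both lines. The other 3 averaged 0.189 to 1.33 FPKM, and sums by line are given with the tissue markers below.

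The 26S proteasome is the main machine that degrades ubiquitin-tagged proteins in plant cells. Its barrel-shaped 20S core is built of outer rings of alpha subunits, which gate the entrance, and inner rings of beta subunits, some of which cut peptide bonds. A 19S regulatory particle sits on the core: its base holds a ring of ATPases (RPT subunits) that unfold substrates, and its non-ATPase subunits (RPN) bind ubiquitin, remove it and hold the lid together. In Arabidopsis and yeast the genes of the subunits are known to be regulated together, and in plants the proteasome acts in hormone signalling, light signalling and the turnover of damaged proteins.

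By their descriptions, which are the names of matching Arabidopsis proteins, 9 members encode alpha ring subunits, 6 beta ring subunits, 6 ATPases of the base and 9 non-ATPase subunits. Another 3 encode an assembly factor, an activator and an inhibitor-related protein. The last 12 form an unclear class: descriptions of 11 name only a PCI domain, a protein family or a putative subunit, and the other is a locus merged with a methyltransferase gene, described as Rpn7. All alpha subunits from alpha 1 to alpha 7 were represented, whereas beta 2, beta 3, beta 4 and beta 7 were the beta subunits found by the rule. Among the ATPases RPT4 had no gene that met the rule. The PCI domain is shared by subunits of the proteasome lid, the COP9 signalosome and translation initiation factor 3 (eIF3), and the table's gene ontology terms divide the 12 accordingly. They place 6 in the COP9 signalosome, 2 in the proteasome lid, 2 in eIF3, 1 in the assembly of the proteasome base and 1 in mRNA export. The table's terms conflict for 3 of the 6 placed in the COP9 signalosome. Phvul.001G102200 and Phvul.004G055700 carry the orthology terms of the lid subunits RPN6 and RPN3. The merged locus has the Rpn7 description and the orthology term K13525, that of CDC48. The number of members outside the proteasome therefore depends on the annotation used.

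Levels are given in FPKM, fragments normalised by the authors for transcript length and library total, a unit that can be compared between genes. Mean FPKM over the 18 libraries ran from 3.76 to 194, with a median of 61.9. The alpha 7 gene Phvul.004G073800 (194 FPKM), the UMP1 gene Phvul.011G021700 (190.2), the alpha 4 gene Phvul.003G264700 (186) and the beta 7 gene Phvul.006G099000 (184) stood highest. Median levels of the classes were 98.6 FPKM for the beta ring, 94.7 for the alpha ring, 74.9 for the ATPases, 60.7 for the non-ATPase subunits and 23.7 for the 12 unclear members. The lowest count of a member in any library was 90 and the highest 20839.

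Total counts per library ran from 48757139 to 74377200. The members together took 0.335% to 0.544% of them, and this share was lower in every golden library than in any green library of the same age. The golden share at 10 DAF was 0.399% ± 0.0117 (SD, n = 3) and the green one 0.512% ± 0.0226. At 14 DAF the shares were 0.359% ± 0.0320 against 0.531% ± 0.0161, and at 18 DAF 0.359% ± 0.0234 against 0.456% ± 0.0289. In a bulk sample, fewer cells of a type and less RNA per cell cannot be told apart.

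**Figure D1:**
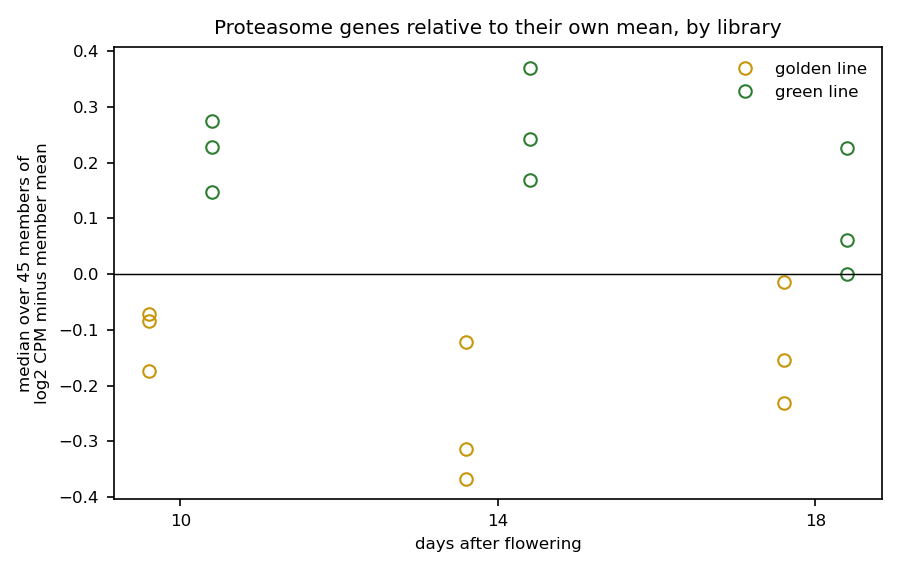
Median over the 45 proteasome members of scaled log2 CPM (counts relative to library size) minus the member's own mean over 18 libraries (vertical axis, log2 units), by days after flowering, with 1 point per library. The 9 golden libraries lie between -0.37 and -0.01, and the 9 green libraries between 0.00 and 0.37, with the lines closest at 18 DAF.

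Golden and green pods were compared at each age to ask how they differ while colour develops. More proteasome genes were called lower in the golden line than higher at each age, most of them at 14 DAF. At 10 DAF, 18 of 45 members were called lower (adjusted p under 0.05 in edgeR's quasi-likelihood test over all 22805 genes) and 1 higher, while 15.5% of all tested genes were lower and 17.1% higher. At 14 DAF, 32 members were lower and 0 higher, against 21.2% and 20.4% of all genes. At 18 DAF, 6 were lower and 0 higher, against 6.99% and 7.99% of all genes. The folds of the called genes were modest: 1.26 to 2.25 (median 1.45) at 10 DAF, 1.27 to 2.16 (median 1.58) at 14 DAF and 1.35 to 2.13 (median 1.42) at 18 DAF. Beside the counts of 0 higher, 1 member was higher at an unadjusted p under 0.05 at 14 DAF and 1 at 18 DAF, and DESeq2 and limma also called 0. Of all genes 49.9% and 28.9% had such a p at these ages, in either direction.

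The members' median log2 fold change, golden against green, was -0.33 at 10 DAF, -0.55 at 14 DAF and -0.25 at 18 DAF, where the medians of all tested genes were 0.02, -0.01 and -0.02. Of the 45 members, 43 had a negative log2 fold change at 10 DAF, 43 at 14 DAF and 38 at 18 DAF. In counts scaled between libraries, 32 members had all golden libraries below all green ones at 10 DAF, 36 at 14 DAF and 20 at 18 DAF. Over all genes such separation downward was found for 29.4%, 27.5% and 13.0%. At each age 1 member was separated upward, against 30.5%, 26.5% and 12.1% of all genes. All 18 genes called lower at 10 DAF were among the 32 at 14 DAF. The 3 genes called lower at all 3 ages were Phvul.010G065200 (alpha 3), Phvul.003G208200 (RPN7) and Phvul.007G207400 (a PCI protein annotated to eIF3). Whether the line difference itself changed between 10 and 14 DAF was not tested.

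The number of calls rested partly on single libraries, among the members and among all genes. At 10 DAF the members lower were 9 without golden replicate 3 and 10 without green replicate 3. All genes lower were then 2128 of 23184 and 2450 of 23174, against 3542 of 22805. At 18 DAF the members lower were 3 without golden replicate 3 and 2 without green replicate 3. All genes lower were then 1120 of 23191 and 1303 of 23187, against 1593 of 22805. With only the 2 groups of 18 DAF in the fit, 0 members and 343 of 21247 genes were lower. Unscaled FPKM in limma gave 24 members lower at 18 DAF, and 36.2% of all genes it called were higher, against 53.4% in edgeR.

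**Figure D2:**
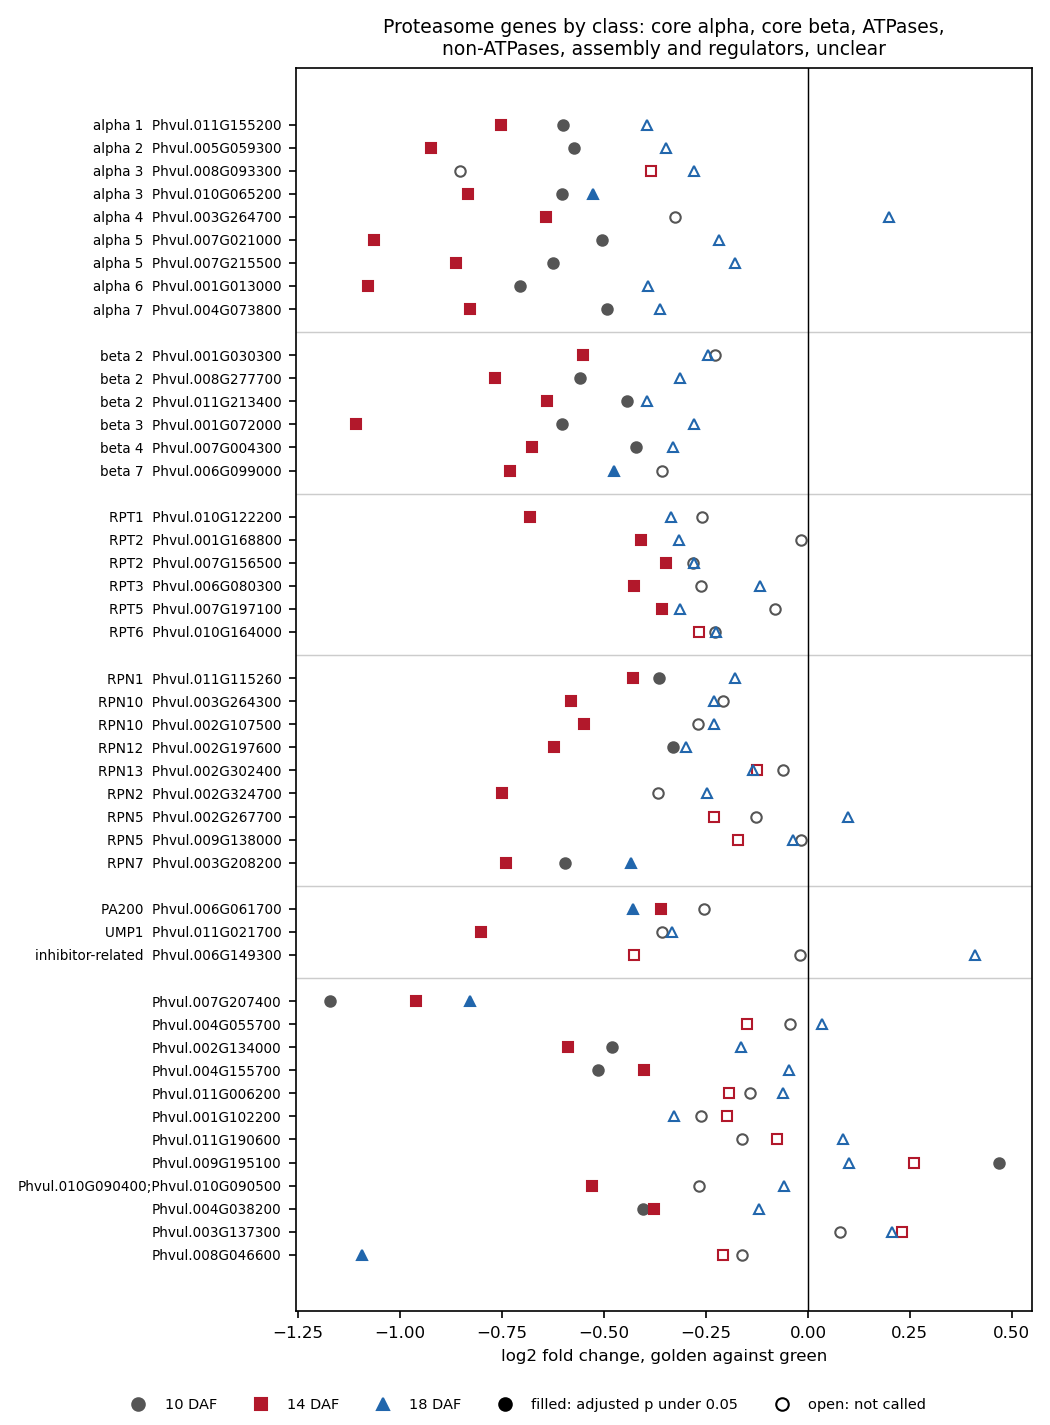
Log2 fold change, golden against green, of each of the 45 members at 10, 14 and 18 DAF, in blocks by class, with filled symbols for an adjusted p under 0.05. Core subunits lie farthest to the left at 14 DAF (alpha ring median -0.83, beta ring median -0.70), and the block of unclear members is spread around its median of -0.20.

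Alpha ring subunits, which form the gate of the 20S core, had the largest class medians of the 6 classes at each age. In the golden line 7 of 9 were lower at 10 DAF, 8 at 14 DAF and 1 at 18 DAF, with class medians of -0.60, -0.83 and -0.35. Of all genes 15.5%, 21.2% and 6.99% were lower at these ages. The alpha 6 gene Phvul.001G013000 stood at 67.7, 72.7 and 90.1 FPKM in the golden line at 14 DAF and at 160.3, 158 and 163 FPKM in the green line. The green libraries were nearly level and the golden ones all far below them (log2 fold change -1.08, SE 0.16, adjusted p = 0.000255). At 10 DAF the same gene was at 92.3 ± 9.15 against 152 ± 5.76 FPKM (SD, n = 3; log2 fold change -0.71, SE 0.16, adjusted p = 0.00444). The alpha 7 gene Phvul.004G073800 was at 137, 125 and 165 FPKM in golden and 237, 261 and 253 FPKM in green pods at 14 DAF (log2 fold change -0.83, SE 0.13, adjusted p = 0.000388). Its call at 10 DAF (log2 fold change -0.49, adjusted p = 0.0114) ended without golden replicate 3 (adjusted p = 0.0567). The alpha 2 gene Phvul.005G059300 had log2 fold changes of -0.57 (adjusted p = 0.0103) at 10 DAF and -0.93 (adjusted p = 0.000444) at 14 DAF.

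Both alpha 5 genes were lower at 10 and 14 DAF. Phvul.007G021000 was at 47.8, 51.4 and 66.6 FPKM in golden and 114, 111 and 118 FPKM in green pods at 14 DAF, with no overlap (log2 fold change -1.07, SE 0.15, adjusted p = 0.000148). Phvul.007G215500 was at 49.1 ± 7.20 against 76.2 ± 4.64 FPKM at 10 DAF (log2 fold change -0.63, SE 0.17, adjusted p = 0.0107), a call that ended without golden replicate 3 (adjusted p = 0.0596). The 10 DAF call of Phvul.007G021000 (log2 fold change -0.51, adjusted p = 0.016) ended without golden replicate 2 (adjusted p = 0.0655), golden replicate 3 (0.0502) or green replicate 3 (0.0506). The alpha 4 gene Phvul.003G264700 was lower at 14 DAF (log2 fold change -0.64, adjusted p = 0.00156) and had values of -0.33 at 10 DAF and 0.20 at 18 DAF, neither called. At 10 DAF 5 of 13 alternatives called it lower, DESeq2 among them (adjusted p = 0.0119). The alpha 1 gene Phvul.011G155200 had log2 fold changes of -0.60 (adjusted p = 0.00438) at 10 DAF and -0.75 (adjusted p = 0.000829) at 14 DAF. Its calls were not followed on omission of single libraries.

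Calls of the 2 alpha 3 genes were unlike. Phvul.010G065200 was lower at all 3 ages and was at 36.2, 29.9 and 26.0 FPKM in golden and 48.9, 43.9 and 52.4 FPKM in green pods at 18 DAF (log2 fold change -0.53, SE 0.14, adjusted p = 0.0181). The groups did not overlap there, and the call ended without golden replicate 3 (adjusted p = 0.0647) or green replicate 3 (adjusted p = 0.0731). At 14 DAF it was at 26.9 ± 1.47 against 47.3 ± 2.45 FPKM (log2 fold change -0.83, SE 0.14, adjusted p = 0.000455). Its copy Phvul.008G093300, with a mean of 94.7 FPKM the more abundant one, was called in no comparison in edgeR with all libraries. At 10 DAF golden libraries held 26.9, 24.9 and 99.9 FPKM and green libraries 114, 132 and 30.0 FPKM. Replicates of 1 group thus differed more than the lines did (log2 fold change -0.85, SE 0.60, adjusted p = 0.295). Without golden replicate 3 of 10 DAF it was called lower at 10 DAF (log2 fold change -1.83, adjusted p = 0.0460) and higher at 18 than at 10 DAF in the golden line (log2 fold change 2.12, adjusted p = 0.0356). A difference between the 2 copies was not tested, and reads shared by near-identical copies cannot be assigned with certainty.

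**Figure D3:**
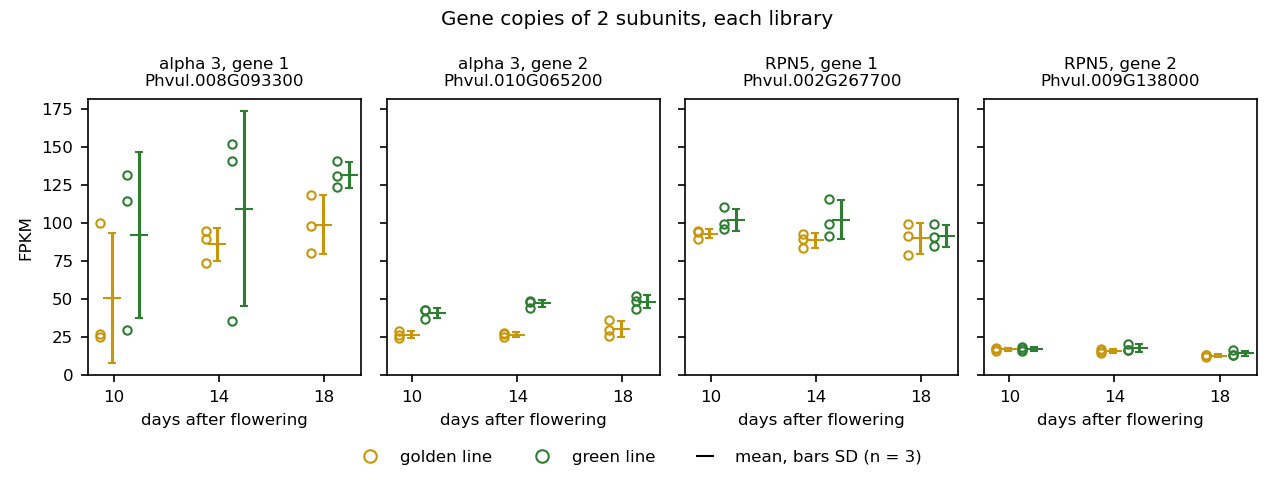
FPKM of the 2 genes of alpha 3 and of RPN5 in each library by days after flowering, golden and green line, open circles for libraries and bars for mean ± SD (n = 3). Phvul.008G093300 has 4 libraries between 24.9 and 35.7 FPKM and 14 between 73.6 and 152, whereas replicates of Phvul.010G065200 lie close together and the golden ones below the green.

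All beta ring genes found by the rule were lower in the golden line at 14 DAF (6 of 6), 4 of them also at 10 DAF and 1 at 18 DAF. Class medians were -0.43, -0.70 and -0.32 in order of age, and 15.5%, 21.2% and 6.99% of all genes were lower. The beta 3 gene Phvul.001G072000, a structural subunit without catalytic activity, stood at 70.0, 69.9 and 112 FPKM in golden and 179.9, 179 and 178 FPKM in green pods at 14 DAF. Golden replicate 3 was well above the other two and still below every green library (log2 fold change -1.11, SE 0.19, adjusted p = 0.00054). At 10 DAF it was at 106 ± 4.33 against 162 ± 7.70 FPKM (log2 fold change -0.60, SE 0.19, adjusted p = 0.0232). The 10 DAF call of beta 3 was lost without golden replicate 1 (adjusted p = 0.0533), golden replicate 2 (0.0553), golden replicate 3 (0.0791), green replicate 1 (0.0501) or green replicate 3 (0.0715).

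The beta 7 gene Phvul.006G099000, another structural subunit, was at 137, 129 and 126 FPKM in golden and 185, 199 and 212 FPKM in green pods at 18 DAF. The lines were separated (log2 fold change -0.48, SE 0.14, adjusted p = 0.0292), but the call ended without golden replicate 2 (adjusted p = 0.0569), golden replicate 3 (0.104), green replicate 2 (0.0519) or green replicate 3 (0.101). At 14 DAF its log2 fold change was -0.73 (adjusted p = 0.00096). At 10 DAF it was not called (-0.36, adjusted p = 0.0554), and 5 of 13 alternatives called it lower. The beta 4 gene Phvul.007G004300 had -0.68 (adjusted p = 0.0034) at 14 DAF and -0.42 (adjusted p = 0.0488) at 10 DAF. The 10 DAF call of beta 4 ended without golden replicate 2 (adjusted p = 0.136), golden replicate 3 (0.177), green replicate 1 (0.107) or green replicate 3 (0.133).

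Beta 2, which cuts after basic residues, had 3 genes. Phvul.001G030300, the most abundant at 76.1 FPKM, was at 63.0 ± 6.01 against 91.1 ± 5.14 FPKM at 14 DAF (log2 fold change -0.55, SE 0.11, adjusted p = 0.00174). It was not called at 10 DAF (-0.23), where 2 of 13 alternatives called it lower. Phvul.008G277700, at 30.4 FPKM, was lower at 10 DAF (log2 fold change -0.56, adjusted p = 0.0157) and at 14 DAF (log2 fold change -0.77, adjusted p = 0.00199). Its 10 DAF call ended without golden replicate 3 (adjusted p = 0.0686) or green replicate 3 (adjusted p = 0.0652). Phvul.011G213400, at 19.6 FPKM, had -0.64 (adjusted p = 0.00479) at 14 DAF and -0.44 (adjusted p = 0.0401) at 10 DAF. The latter call held on omission of golden replicate 1 alone and ended without golden replicate 2 (adjusted p = 0.105), golden replicate 3 (0.144), green replicate 1 (0.0656), green replicate 2 (0.0559) or green replicate 3 (0.128).

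**Figure D4:**
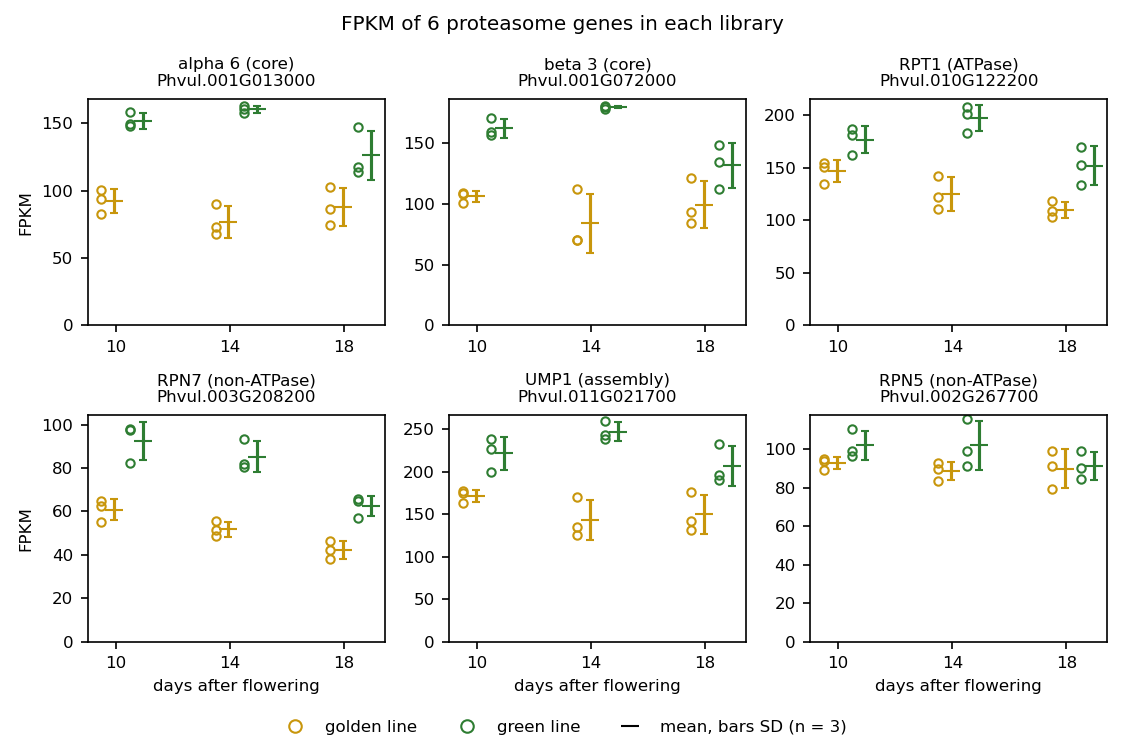
FPKM of 6 proteasome genes in each library by days after flowering, for alpha 6, beta 3, RPT1, RPN7, UMP1 and RPN5, with circles for libraries and bars for mean ± SD (n = 3), golden and green line. In 5 of the 6 genes the golden libraries lie below the green ones at 14 DAF, and in RPN5 (Phvul.002G267700) the lines overlap.

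ATPases of the base, which unfold substrates, had negative log2 fold changes in all 6 genes at each age. The number of calls depended on the tool and its settings. In edgeR 0 of 6 were lower at 10 DAF, 5 at 14 DAF and 0 at 18 DAF, while 3 at 10 DAF and 5 at 18 DAF, all lower, had an unadjusted p under 0.05. Of all genes 43.7% and 28.9% had such a p at these ages, in either direction. Called lower in edgeR were 15.5%, 21.2% and 6.99% of all genes at 10, 14 and 18 DAF. DESeq2 called 3 lower at 10 DAF and 1 at 18 DAF, and limma on FPKM called 2 and 5 with both pseudocounts. At 14 DAF DESeq2 and limma called 6 lower. At 10 DAF RPT3 and the RPT2 gene Phvul.007G156500 were called in both other tools, with adjusted p = 0.000775 and 0.0128 in DESeq2 against 0.0539 and 0.0766 in edgeR. Within edgeR both were called with RLE size factors (adjusted p = 0.0289 and 0.0474) and with only the groups compared (0.0211 and 0.0295). Each was called in 5 of 13 alternatives. The class medians were -0.24, -0.38 and -0.30. RPT1 (Phvul.010G122200), the most abundant, was at 111, 122 and 142 FPKM in golden and 208, 202 and 184 FPKM in green pods at 14 DAF. All golden libraries lay below all green ones (log2 fold change -0.68, SE 0.14, adjusted p = 0.00201). RPT3 (Phvul.006G080300) was at 60.1 ± 1.38 against 79.7 ± 5.98 FPKM (log2 fold change -0.43, SE 0.10, adjusted p = 0.00366). RPT6 (Phvul.010G164000), at 79.6 ± 7.55 against 94.5 ± 4.17 FPKM, missed the threshold in edgeR with all libraries (log2 fold change -0.27, SE 0.10, adjusted p = 0.051). It was called lower in DESeq2 (adjusted p = 0.015), in limma (0.041 and 0.039 with the 2 pseudocounts) and in edgeR without golden replicate 3 (0.0164).

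The other ATPase calls at 14 DAF were less firm. In a fit of the 14 DAF groups alone RPT3 (adjusted p = 0.0510), RPT5 (0.0898) and both RPT2 genes (0.0852 and 0.147) missed the threshold. RPT5 (Phvul.007G197100) had -0.36 (adjusted p = 0.0418), and the call ended without golden replicate 1 (adjusted p = 0.107), golden replicate 2 (0.0853), green replicate 1 (0.136) or green replicate 2 (0.0859). The RPT2 gene Phvul.001G168800 had -0.41 (adjusted p = 0.0167), which ended without golden replicate 1 (adjusted p = 0.0614), golden replicate 2 (0.0590) or green replicate 2 (0.0682). Its copy Phvul.007G156500 had -0.35 (adjusted p = 0.027), which ended without golden replicate 1 (adjusted p = 0.0878), golden replicate 2 (0.0596) or green replicate 1 (0.150).

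Non-ATPase subunits were divided. In the golden line 3 of 9 were lower at 10 DAF, 6 at 14 DAF and 1 at 18 DAF, with medians of -0.27, -0.55 and -0.23. The shares of all genes lower were 15.5%, 21.2% and 6.99%. RPN7 (Phvul.003G208200), a PCI subunit of the lid, was at 64.7, 62.7 and 55.2 FPKM in golden and 82.6, 97.4 and 97.9 FPKM in green pods at 10 DAF. The lines did not overlap (log2 fold change -0.60, SE 0.13, adjusted p = 0.00402), nor did they at 14 DAF, when it was at 51.9 ± 3.53 against 85.3 ± 7.26 FPKM (log2 fold change -0.74, SE 0.13, adjusted p = 0.000793). At 18 DAF it was at 46.6, 42.1 and 38.2 against 57.2, 64.7 and 65.9 FPKM (log2 fold change -0.43, SE 0.13, adjusted p = 0.0411). The 18 DAF call ended without golden replicate 2 (adjusted p = 0.0662), golden replicate 3 (0.150), green replicate 2 (0.0846) or green replicate 3 (0.127).

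RPN1 (Phvul.011G115260), a scaffold of the base that docks shuttle proteins, had log2 fold changes of -0.37 (adjusted p = 0.0156) at 10 DAF and -0.43 (adjusted p = 0.00491) at 14 DAF. Its 10 DAF call ended without golden replicate 3 (adjusted p = 0.0666) or green replicate 3 (adjusted p = 0.0544), and its 14 DAF call in a fit of that age alone (adjusted p = 0.0694). RPN12 (Phvul.002G197600), a lid subunit, had -0.62 (adjusted p = 0.000753) at 14 DAF and -0.33 (adjusted p = 0.0339) at 10 DAF. The 10 DAF call of RPN12 was lost whichever of the 6 libraries was left out (golden replicates 1, 2 and 3: adjusted p = 0.0518, 0.0935 and 0.109; green: 0.0548, 0.0623 and 0.0940). RPN2 (Phvul.002G324700), the other large scaffold of the base, was at 40.05 ± 3.13 against 66.4 ± 3.03 FPKM at 14 DAF (log2 fold change -0.75, SE 0.14, adjusted p = 0.00109). The RPN2 call was not followed on omission of single libraries.

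RPN10 and RPN13 are ubiquitin receptors. Both RPN10 genes were lower at 14 DAF, with -0.55 (adjusted p = 0.00164) for Phvul.002G107500 and -0.58 (adjusted p = 0.00228) for Phvul.003G264300. Neither call was followed on omission of single libraries. RPN13 (Phvul.002G302400) stood at 30.1 ± 0.425 FPKM in golden and 32.3 ± 2.78 FPKM in green pods at 14 DAF (log2 fold change -0.12, SE 0.11, adjusted p = 0.393). The lid subunit RPN5 was called in no comparison in edgeR with all libraries. Its gene Phvul.002G267700 was at 92.9, 83.4 and 89.6 FPKM in golden and 116, 99.1 and 91.3 FPKM in green pods at 14 DAF, with overlapping lines (log2 fold change -0.23, SE 0.13, adjusted p = 0.158), and its copy Phvul.009G138000, at a mean of 16.0 FPKM, had -0.17 (adjusted p = 0.218). Without green replicate 3 of 14 DAF the first was called (log2 fold change -0.36, adjusted p = 0.0496), and limma on FPKM called the copy lower at 18 than at 10 DAF in the golden line (adjusted p = 0.0341 and 0.0357 with the 2 pseudocounts). A p above the threshold does not show equal levels.

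UMP1 (Phvul.011G021700), a chaperone of core assembly that is degraded when the core is complete, stood at 125, 135 and 171 FPKM in golden and 239, 259.9 and 243 FPKM in green pods at 14 DAF. The lines did not overlap (log2 fold change -0.80, SE 0.15, adjusted p = 0.0011), and at 10 DAF the difference of -0.36 missed the threshold (adjusted p = 0.0838). At 10 DAF 2 of 13 alternatives called UMP1 lower. PA200 (Phvul.006G061700), an activator that caps the core in place of the 19S particle, was at 9.53, 11.4 and 13.6 FPKM in golden and 15.5, 18.0 and 17.1 FPKM in green pods at 18 DAF (log2 fold change -0.43, SE 0.12, adjusted p = 0.0279). This call ended without golden replicate 1 (adjusted p = 0.0901), golden replicate 2 (0.0526), green replicate 2 (0.0755) or green replicate 3 (0.0801). The PA200 call at 14 DAF (log2 fold change -0.36, adjusted p = 0.0282) ended without golden replicate 1 (adjusted p = 0.0869), golden replicate 2 (0.0756) or green replicate 1 (0.116). The inhibitor-related gene Phvul.006G149300 was at 79.0 ± 5.81 against 105 ± 5.68 FPKM at 14 DAF (log2 fold change -0.43, SE 0.17, adjusted p = 0.0528), and 4 of 13 alternatives called it lower there.

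Among the 12 members with unclear descriptions, 4 were lower and 1 higher at 10 DAF, 5 lower and 0 higher at 14 DAF, and 2 lower and 0 higher at 18 DAF. Of all genes 15.5%, 21.2% and 6.99% were lower and 17.1%, 20.4% and 7.99% higher at the 3 ages. Phvul.007G207400, the PCI gene annotated to eIF3, was at 55.0, 59.7 and 50.6 FPKM in golden and 116, 128 and 130.3 FPKM in green pods at 10 DAF. The lines were far apart (log2 fold change -1.17, SE 0.13, adjusted p = 2.20e-05), and it was lower too at 14 DAF (log2 fold change -0.96, SE 0.13, adjusted p = 0.000113) and at 18 DAF (log2 fold change -0.83, SE 0.13, adjusted p = 0.000645). The other gene annotated to eIF3, Phvul.004G038200, had -0.41 (adjusted p = 0.021) at 10 DAF and -0.38 (adjusted p = 0.0236) at 14 DAF, calls that were not followed on omission of single libraries. The 13 tested genes described outright as translation initiation factor 3, which are not members, had 10 lower and 0 higher at 10 DAF, 9 lower and 1 higher at 14 DAF, and 0 lower and 1 higher at 18 DAF.

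Both genes annotated to the proteasome lid were lower at 10 and 14 DAF. Phvul.002G134000 was at 32.1 ± 2.32 against 47.7 ± 1.08 FPKM at 14 DAF (log2 fold change -0.59, SE 0.12, adjusted p = 0.00174), and Phvul.004G155700 was at 31.2 ± 2.85 against 44.99 ± 4.67 FPKM at 10 DAF (log2 fold change -0.52, SE 0.11, adjusted p = 0.00346). The COP9 signalosome is a relative of the lid that acts on cullin ligases. At 10, 14 and 18 DAF 15.5%, 21.2% and 6.99% of all genes were lower. Of the 6 genes with a gene ontology term of the COP9 signalosome, 0 were lower at 10 DAF, 1 at 14 DAF and 1 at 18 DAF, near those shares. That of 14 DAF was the merged locus Phvul.010G090400;Phvul.010G090500, with a log2 fold change of -0.53 (adjusted p = 0.00303), a call that was not followed on omission of single libraries. Another 4, Phvul.001G102200 (orthology term of RPN6), Phvul.004G055700 (that of RPN3), Phvul.011G006200 and Phvul.011G190600, had -0.20, -0.15, -0.19 and -0.07 at 14 DAF and were called at no age in edgeR, nor was Phvul.003G137300 of mRNA export, at 0.23. That of 18 DAF was Phvul.008G046600, the least abundant member, at 1.52, 1.98 and 2.48 FPKM in golden and 4.74, 4.74 and 4.42 FPKM in green pods (log2 fold change -1.09, SE 0.29, adjusted p = 0.0185), a call that ended without golden replicate 1 (adjusted p = 0.0575). The member called higher was Phvul.009G195100, annotated to the assembly of the base. It stood at 23.0, 23.6 and 20.8 FPKM in golden and 14.7, 19.0 and 15.3 FPKM in green pods at 10 DAF (log2 fold change 0.47, SE 0.15, adjusted p = 0.0281). The call ended without golden replicate 1 (adjusted p = 0.0721), golden replicate 2 (0.0800), green replicate 1 (0.0945) or green replicate 3 (0.103).

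Few members changed between 10 and 18 DAF within a line. In the golden line 2 of 45 rose and 3 fell from 10 to 18 DAF, while 11.3% of all genes rose and 9.37% fell, and the members' median log2 fold change was 0.01. PA200 fell from 17.4 ± 0.373 to 11.5 ± 2.06 FPKM (log2 fold change -0.42, SE 0.12, adjusted p = 0.0263), RPT6 from 91.8 ± 2.86 to 62.1 ± 3.26 FPKM (log2 fold change -0.38, SE 0.10, adjusted p = 0.0186) and RPT5 from 88.0 ± 4.22 to 59.0 ± 2.18 FPKM (log2 fold change -0.39, SE 0.13, adjusted p = 0.0481). The inhibitor-related gene Phvul.006G149300 rose from 75.4, 86.6 and 80.8 to 95.9, 127 and 99.1 FPKM (log2 fold change 0.60, SE 0.17, adjusted p = 0.0216). Phvul.007G207400 rose from 55.1 ± 4.54 to 64.6 ± 8.77 FPKM (log2 fold change 0.41, SE 0.13, adjusted p = 0.0343). Separated groups were found for 12 members downward and 4 upward, against 18.5% and 17.7% of all genes.

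Each of these 5 calls was lost on leaving out some single libraries. The PA200 call ended without golden replicate 1 (adjusted p = 0.0704), 2 (0.0592) or 3 (0.0765) of 10 DAF or replicate 1 of 18 DAF (0.102). That of RPT6 ended without replicate 1 (0.0510) or 2 (0.0658) of 10 DAF or replicate 3 of 18 DAF (0.0595). That of RPT5 ended without replicate 1 (0.139), 2 (0.109) or 3 (0.0789) of 10 DAF or replicate 1 (0.106) or 3 (0.147) of 18 DAF. The rise of Phvul.006G149300 ended without replicate 1 (0.0806) or 3 (0.0582) of 10 DAF or replicate 2 of 18 DAF (0.0820). The rise of Phvul.007G207400 ended without replicate 1 (0.0903), 2 (0.0562) or 3 (0.118) of 10 DAF or replicate 2 (0.0909) or 3 (0.0921) of 18 DAF. The golden libraries of 18 DAF had scaling factors of 0.909, 0.855 and 0.978, which the FPKM values do not carry, so changes in FPKM and in the tested counts differ here. With unscaled FPKM in limma, 14 members fell and 0 rose, the members' median was -0.17, and 28.2% of all genes it called were higher, against 54.8% in edgeR.

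In the green line 1 member rose and 5 fell from 10 to 18 DAF, against 19.3% and 15.6% of all genes, with a members' median of -0.15. The beta 2 gene Phvul.008G277700 fell from 39.6, 43.5 and 47.8 to 24.1, 27.0 and 30.9 FPKM, without overlap (log2 fold change -0.61, SE 0.16, adjusted p = 0.00926). RPN7 fell from 92.6 ± 8.72 to 62.6 ± 4.71 FPKM (log2 fold change -0.50, SE 0.13, adjusted p = 0.00995). RPN1 (Phvul.011G115260) fell from 90.9 ± 5.47 to 66.0 ± 3.61 FPKM (log2 fold change -0.40, SE 0.10, adjusted p = 0.00896), RPT6 (Phvul.010G164000) by 0.39 on the log2 scale (adjusted p = 0.0102) and RPN12 (Phvul.002G197600) by 0.30 (adjusted p = 0.0464). Phvul.009G195100 rose from 14.7, 19.0 and 15.3 to 26.0, 26.8 and 18.5 FPKM, with green replicate 3 of 18 DAF inside the 10 DAF range (log2 fold change 0.60, SE 0.15, adjusted p = 0.00735). The RPT6 call ended without green replicate 3 of 10 DAF (adjusted p = 0.0526). The RPN12 call ended without green replicate 1 (adjusted p = 0.0711), 2 (0.0737) or 3 (0.119) of 10 DAF, or replicate 1 (0.137) or 2 (0.118) of 18 DAF. The count of 5 became 3 without green replicate 3 of 10 DAF, where all genes that fell went from 3565 of 22805 to 2549 of 23174. Separated groups were found for 13 members downward and 3 upward, against 25.9% and 26.5% of all genes.

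The line by age interaction, the golden change from 10 to 18 DAF minus the green one, was called for 0 of 45 members, against 3.77% of all genes higher and 6.13% lower. At an unadjusted p under 0.05, 2 members were higher and 1 lower, against 26.9% of all genes in either direction. DESeq2 called 2 members higher, the alpha 4 gene Phvul.003G264700 and Phvul.004G155700, and 1880 of 24972 genes. In edgeR the alpha 4 gene had an interaction of 0.52 (SE 0.18, adjusted p = 0.0813). It stood at 159, 173 and 163 FPKM at 10 DAF and 204, 164 and 190.0 FPKM at 18 DAF in the golden line, and at 207, 205 and 212 and 177, 173 and 179 FPKM in the green line. Phvul.004G155700 had 0.47 (SE 0.16, adjusted p = 0.0749), and without golden replicate 2 of 18 DAF it was called (adjusted p = 0.0179). The members' median interaction was 0.12 and became -0.01 with unscaled FPKM in limma.

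Core genes varied together from library to library. As a description without a test over the 18 libraries, which share depth scaling and group membership, the mean pairwise Pearson correlation of scaled log2 CPM was 0.88 among the 6 beta genes, 0.72 among the 9 alpha genes, 0.72 among the ATPases, 0.58 among the non-ATPase subunits and 0.20 among the 12 unclear members. Over all tested genes it was 0.00085. Scaling between libraries by itself keeps that mean near 0, so it is no yardstick for a gene set. After group means were removed the mean correlations of the classes, in the same order, were 0.77, 0.58, 0.63, 0.28 and 0.11. Against the mean of the other core genes, alpha 6 stood at 0.985, UMP1 (Phvul.011G021700) at 0.97 and RPT1 (Phvul.010G122200) at 0.91. Phvul.009G195100 stood at -0.50, Phvul.003G137300, annotated to mRNA export, at -0.53, and the alpha 3 gene Phvul.008G093300 at 0.16. In FPKM, replicate 3 was the highest library for 15 of 15 core genes and 35 of 45 members in golden pods of 14 DAF. In green pods of 18 DAF replicate 3 was for 14 and 32. Replicates 1, 2 and 3 were highest for 8, 6 and 1 core genes in golden pods of 10 DAF and for 12, 3 and 0 at 18 DAF. In green pods they were for 0, 3 and 12 at 10 DAF and 7, 4 and 4 at 14 DAF. The same count over all genes was not made.

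Genes around the proteasome were read from lists of the same table, with members left out. Of 9 N-terminal nucleophile hydrolases, the fold of the core subunits, 3 were lower and 1 higher at 10 DAF and 3 lower and 1 higher at 14 DAF, with 1 either way at 18 DAF, and the 3 lower ones of 14 DAF carry orthology terms of beta subunits that the rule did not find. These were Phvul.009G103400 (beta 1), with a log2 fold change of -0.89 at 14 DAF (adjusted p = 0.000617), Phvul.009G167300 (beta 5) with -0.74 (adjusted p = 0.00114) and Phvul.003G061000 (beta 6) with -1.07 (adjusted p = 0.000253). The one called higher at 18 DAF, Phvul.001G025000, is annotated to asparaginase activity. Of 9 ubiquitin genes, 3 were lower and 3 higher at 10 DAF, 5 lower and 2 higher at 14 DAF, and 1 lower and 0 higher at 18 DAF. Phvul.002G065200, described as ubiquitin 6, was at 427 FPKM in golden and 1023 FPKM in green pods at 14 DAF (log2 fold change -1.29, SE 0.20, adjusted p = 0.000337).

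Upstream of the proteasome the counts were mixed. Of 33 genes for E1 and E2 enzymes, which activate and carry ubiquitin, 11 were higher and 4 lower at 10 DAF, 6 higher and 8 lower at 14 DAF, and 0 either way at 18 DAF. Of 18 genes for CDC48, the segregase that extracts substrates, and for shuttle factors, 1 was lower and 1 higher at 10 DAF, 7 lower and 2 higher at 14 DAF, and 0 either way at 18 DAF. The CDC48 gene Phvul.007G149432 was at 80.7 FPKM in golden and 105 FPKM in green pods at 14 DAF (log2 fold change -0.40, adjusted p = 0.0232). Of 57 deubiquitinating enzymes 9 were lower and 6 higher at 10 DAF, 13 lower and 5 higher at 14 DAF, and 2 lower and 1 higher at 18 DAF. Of 21 cullin ligase core genes 0 were lower and 5 higher at 10 DAF, 2 lower and 3 higher at 14 DAF, and 0 lower and 1 higher at 18 DAF. Of 3 genes described as COP9 signalosome 1 was lower at 14 DAF, with 0 other calls at the 3 ages. These counts stand against 15.5%, 21.2% and 6.99% of all genes lower and 17.1%, 20.4% and 7.99% higher at the 3 ages.

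Markers of green tissue differed between the lines as well, while seed tissue markers were called at shares near or below those of all genes. At 10, 14 and 18 DAF 17.1%, 20.4% and 7.99% of all genes were higher and 15.5%, 21.2% and 6.99% lower. Green tissue markers (85 genes of photosystems and antenna proteins) had 25 higher and 0 lower in the golden line at 10 DAF, 62 and 0 at 14 DAF, and 64 and 0 at 18 DAF. Their summed FPKM was 38030 to 48210 in golden and 27040 to 28270 in green libraries at 10 DAF, 39690 to 47980 and 18440 to 21600 at 14 DAF, and 33340 to 72230 and 13130 to 25700 at 18 DAF. Seed tissue markers, with 108 tested of 148 in the table, had 14 higher and 12 lower at 10 DAF and 11 higher and 27 lower at 14 DAF, with sums of 10760 to 11880 against 5731 to 6364 FPKM at 10 DAF and 6163 to 7707 against 7976 to 10430 at 14 DAF. At 18 DAF 5 were higher and 4 lower, with sums of 4900 to 8645 against 4900 to 7315 FPKM, and 0 of the 148 were at 0 in all libraries. The median log2 fold change was 0.60, 1.26 and 1.19 over the green tissue markers and -0.53, -0.80 and -0.04 over the seed markers, in order of age. At 10 DAF the summed seed markers were higher in the golden line while their median was negative. Of the 4 tested fruit identity markers 1 was higher and 0 lower at 14 DAF, and 0 were called at 10 and 18 DAF. Their median log2 fold change was -0.50, -0.53 and -0.13 in order of age. Summed over all 7 matching genes, FPKM was 91.5 to 127 in golden and 43.1 to 69.2 in green libraries at 10 DAF. The sums were 129 to 225 against 31.2 to 60.2 at 14 DAF, and 44.1 to 167 against 41.25 to 69.9 at 18 DAF. The part of these markers in the members' differences was not tested.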

How the data were processed

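By the design text, pod walls of 2 common bean lines were profiled at 10, 14 and 18 DAF in 18 libraries, though a label field reads leaf. Poly(A) RNA was sequenced in read pairs, per the labels' protocols. The authors deposited FPKM and estimated counts per gene in 1 table, per the file headers, and rounding left the whole-number counts as they were. No scaling of FPKM between libraries beyond the total is stated. No source used here gives the aligner, counting program, genome build, annotation version or strand setting, so reads of antisense, overlapping or near-identical genes could not be told apart. Genes without a gene name (635) held 2.20% to 3.97% of counts and were kept.

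The count test was edgeR 4.0.16 (R 4.3.3): expression filter, TMM scaling, 1 mean per group over all 18 libraries (common dispersion 0.155, 12 residual degrees of freedom), two-sided quasi-likelihood tests and Benjamini-Hochberg adjustment over 22805 genes. A gene was called at an adjusted p under 0.05. Separation of groups and correlations used scaled log2 CPM with a prior count of 2. The script was checked on simulated data. Alternatives were RLE size factors, DESeq2 1.42.0, limma 3.58.1 on log2(FPKM + 1) and log2(FPKM + 0.1), no low-count filter, a replicate block, only the groups compared, and leaving out each library. Replicates differed by a chi-square of at least 51.3 per gene, so none was a repeated library. The edgeR p-values set a difference between groups against the spread between replicate libraries of these samples, estimated over all 6 groups.

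Members were assigned to classes by their descriptions. The members and lists were chosen with earlier results of these data known. Named members were, by rule, the 4 most abundant of each class, the 5 called members with the largest fold in each direction of each comparison, members called against the common direction, and the copies of the 5 subunits whose genes differ most in level. Alpha 1, RPN2, RPN10, RPN13 and 6 of the unclear class (Phvul.004G038200, Phvul.003G137300, Phvul.001G102200, Phvul.011G006200, Phvul.011G190600 and the merged locus) were added after their values were seen, as were the genes named that are not members. Results of these added genes were not followed gene by gene under the alternatives. The list of NAC factors 53 and 78 matched 0 genes, and the planned count of promoter motifs was not run.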

Additional observations from a re-analysis of the deposited data

How the results depend on the processing

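Counts of members called lower at 14 DAF stayed within 26 to 34 under every alternative run, and the other counts moved more. All genes called lower at 14 DAF ran from 3613 (without golden replicate 2) to 5342 (DESeq2). Members lower in the golden line at 10 DAF numbered 29 in DESeq2, 24 with RLE size factors and 27 with only the groups compared, against 18. All genes lower numbered 4537 of 24972, 3819 of 22805 and 5322 of 21524 there, against 3542 of 22805. On omission of each library the members lower ran from 9 (without golden replicate 3, with 10 without green replicate 3) to 16, with 0 to 1 higher. The 1 higher became 0 without golden replicate 1 or 2 or green replicate 1 or 3. All genes lower then ran from 2128 to 2929. At 14 DAF the members lower ran from 27 to 33 with 0 higher, and all genes lower from 3613 to 4761. At 18 DAF the members lower numbered 10 in DESeq2, 24 in limma with both pseudocounts and 0 with only the groups compared. All genes lower numbered 2253 of 24972 in DESeq2, 2291 and 2413 of 20395 in limma and 343 of 21247 with only the groups compared. On omission of a library the members lower at 18 DAF ran from 2 (without green replicate 3, with 3 without golden replicate 3) to 7. All genes lower then ran from 1120 to 1587. From 10 to 18 DAF in the golden line the rises numbered 5 in DESeq2, 0 in limma, 0 with only the groups compared and 1 with the replicate block, and 0 (without replicate 1 of 10 DAF) to 2 on omission of a library, with 1 without replicate 2 or 3 of 10 DAF or replicate 2 of 18 DAF. The falls numbered 14 in limma, 0 with only the groups compared and 0 to 4 on omission of a library: 0 without replicate 1 or 2 of 10 DAF, and 1 without replicate 3 of 10 DAF or replicate 1 or 3 of 18 DAF. Among all genes 3529 of 24972 rose in DESeq2. In limma 1412 and 1427 of 20395 rose and 3595 and 3691 fell with the 2 pseudocounts. With only the groups compared 1323 of 21180 rose and 1418 fell. In the green line the rises numbered 2 in DESeq2 and 1 to 2 on omission of a library (2 without replicate 2 of 18 DAF), and the falls 9 in DESeq2, 8 in limma and 3 (without replicate 3 of 10 DAF) to 5 on omission. Among all genes of the green line 4751 of 24972 rose and 4447 fell in DESeq2, and 4439 and 4278 of 20395 fell in limma. The interaction was called higher for 2 members in DESeq2 and 0 to 1 on omission of a library (1 without golden replicate 2 of 18 DAF), and lower for 0. It was higher for 1880 of 24972 genes in DESeq2 and 1399 of 23211 without golden replicate 2 of 18 DAF.

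Unscaled FPKM moved the median of all genes by -0.12 at 18 DAF (log2(FPKM + 0.1)), -0.19 in the golden line from 10 to 18 DAF and -0.12 in the interaction. Relative to that median the members stood at -0.24 at 18 DAF, against -0.23 in edgeR. Among single values of the members named by rule under an alternative, 2500 kept their side of the threshold, 108 gained a call, 119 lost one and 0 changed sign while called.

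Of 45 correlations between same-numbered libraries of different groups, after group means were removed, 5 were above 0.1 (range -0.21 to 0.18). Differently numbered libraries were not compared, so these values cannot decide whether replicate numbers pair the samples. With the replicate number as a block the members called lower were 16, 31 and 4 at 10, 14 and 18 DAF, 2 in the golden and 4 in the green line from 10 to 18 DAF, and 0 in the interaction. In the same order, all genes lower were 3228, 4506, 1327, 1881, 3279 and 1161 of 22805.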

Other observations

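The alpha 3 gene Phvul.008G093300 took 2 separate levels. It stood between 24.9 and 35.7 FPKM in 4 libraries, golden replicates 1 and 2 of 10 DAF, green replicate 3 of 10 DAF and green replicate 3 of 14 DAF, and between 73.6 and 152 FPKM in the other 14, with no library between. Its highest library was 6.08 times its lowest, where the other 44 members ran from 1.32 to 3.89 times with a median of 1.94. Over 18 libraries its correlation with the mean of the other core genes was 0.159, and those of the other 14 core genes ran from 0.786 to 0.985. In the 4 low libraries its copy Phvul.010G065200 stood at 26.7, 29.3, 42.9 and 49.0 FPKM, where its own groups ranged from 24.5 to 29.3, 37.2 to 43.0 and 44.5 to 49.0 FPKM.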
